A study of Homo sapiens with 4 samples.

Results

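The small leucine-rich proteoglycans are a family of secreted matrix proteins, and the 10 genes described here are DCN, LUM, KERA, EPYC, BGN, FMOD, PRELP, OGN, ASPN and PODN. They were taken by symbol, as 10 of the 64252 gene IDs in the count table, and the table holds an ID for each. The family was selected on measured values, the fold changes of DCN and LUM in the comparison described here, so the values of the 10 members are given as a description without a test. RNA was sequenced from 4 libraries of SK-N-BE(2), an established human neuroblastoma line with amplified MYCN. In 2 libraries the cells carried a short hairpin RNA against TTC8 (shTTC8, labelled TTC8-knockdown), and in 2 they carried a scramble hairpin (shScb, labelled control). The comparison asked how transcripts differed once TTC8, a subunit of the BBSome, the coat complex that carries receptors through the primary cilium, was lowered. The labels name neither the number of hairpins nor separate cultures, so an off-target effect of a hairpin cannot be told apart from the loss of TTC8, and the spread between libraries may be technical.

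Small leucine-rich proteoglycans have a curved core of leucine-rich repeats that binds collagen fibrils, and most carry glycosaminoglycan chains. Decorin, biglycan and asporin form class I, in which decorin and biglycan carry chondroitin or dermatan sulfate. Lumican, fibromodulin, keratocan and PRELP belong to class II, whose members mostly carry keratan sulfate, and epiphycan and osteoglycin (mimecan) to class III. Podocan is a more distant member. They set the spacing and thickness of collagen fibrils and bind growth factors, and in tissues they are made mainly by fibroblasts and other connective tissue cells.

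TTC8 itself had 1130 and 1268 counts in shTTC8 and 9888 and 10398 counts in shScb, so 15.4% of the shScb level remained in CPM, which are counts scaled to library size. Library totals ran from 38284663 to 40863047 counts in shTTC8 and from 51168727 to 55331449 in shScb. All 12 neuroblastoma markers had counts in every library, with MYCN the most abundant, and their summed level was 9971 and 10236 CPM in shTTC8 and 11846 and 12168 CPM in shScb. In bulk RNA, fewer cells of a type and less RNA per cell cannot be told apart. Other cell types were sought by their markers, whose counts of calls can be read against 16.7% lower and 15.2% higher among all tested genes. The fibroblast list summed to 715 and 683 CPM in shTTC8 and 757 and 768 CPM in shScb, mostly from FBLN1 and THY1. Of its 12 genes 6 were tested, of which 4 (COL1A1, COL3A1, PDGFRA and PDGFRB) were lower and 1 (THY1) was higher. Without shTTC8 replicate 2, COL3A1 and PDGFRA missed the threshold (edgeR adjusted p = 0.126 and 0.116). THY1 missed the threshold if shTTC8 replicate 1 was left out (edgeR adjusted p = 0.199), without shTTC8 replicate 2 (0.106) or with no low-count filter (0.0631). FBLN1 was not called (-0.14, edgeR adjusted p = 0.105) but passed the threshold without shScb replicate 1 (-0.20, edgeR adjusted p = 0.00688). The list was uneven. FBLN1 averaged 260.2 CPM in shTTC8 and 287 in shScb, THY1 240.5 in shTTC8 and 210.3 in shScb, PDGFRB 157 in shTTC8 and 208 in shScb, PDGFRA 29.02 in shTTC8 and 36.8 in shScb, and COL3A1 10.7 in shTTC8 and 14.2 in shScb. PDPN, FAP, COL1A2, MFAP5, PI16 and POSTN were at or near 0, with at most 0.138 CPM in any library. The endothelial list summed to 2.24 and 1.98 CPM in shTTC8 and 4.63 and 4.40 CPM in shScb, with PECAM1 and TEK at 0. Of its 7 genes 3 were tested, of which 2 were lower. These were VWF, at 0.129 and 0.0966 CPM in shTTC8 and 1.40 and 1.01 CPM in shScb (log2 fold change -3.39, edgeR adjusted p = 1.05e-04), and EGFL7 (log2 fold change -1.09, edgeR adjusted p = 0.00576). The leukocyte list summed to 5.25 and 4.40 CPM in shTTC8 and 16.9 and 16.3 CPM in shScb, with CD3E at 0. Of its 6 genes 3 were tested, of which 1 was lower. That gene was PTPRC, at 3.55 and 2.996 CPM in shTTC8 and 15.8 and 15.0 CPM in shScb. The Schwann cell list summed to 6.15 and 5.15 CPM in shTTC8 and 5.44 and 4.54 CPM in shScb, with SOX10 and FOXD3 at 0. Of its 7 genes 3 were tested and none was called. The epithelial list summed to 6.80 and 7.59 CPM in shTTC8 and 8.41 and 8.26 CPM in shScb, with CDH1 at 0. Of its 5 genes 4 were tested, of which 1, KRT19, was lower (log2 fold change -1.59, edgeR adjusted p = 0.00343). The part of these markers in the results was not tested.

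The 10 genes fell into 3 ranges of read support. BGN, LUM, DCN and FMOD each exceeded 3 CPM in every library. OGN and ASPN were near 1 CPM in shScb and at most 0.0966 CPM in shTTC8. PRELP, PODN, EPYC and KERA stayed below 0.5 CPM throughout. Of the 10, 6 passed the low-count filter of edgeR, OGN and ASPN only through their shScb libraries, and these 6 were called lower in shTTC8. Over all 19610 tested genes 16.7% were called lower and 15.2% higher, 31.9% in either direction, at a Benjamini-Hochberg adjusted p under 0.05. Both shTTC8 values were below both shScb values in 32.9% of tested genes. Because this comparison chose the members, nothing is read from their count.

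**Figure D1:**
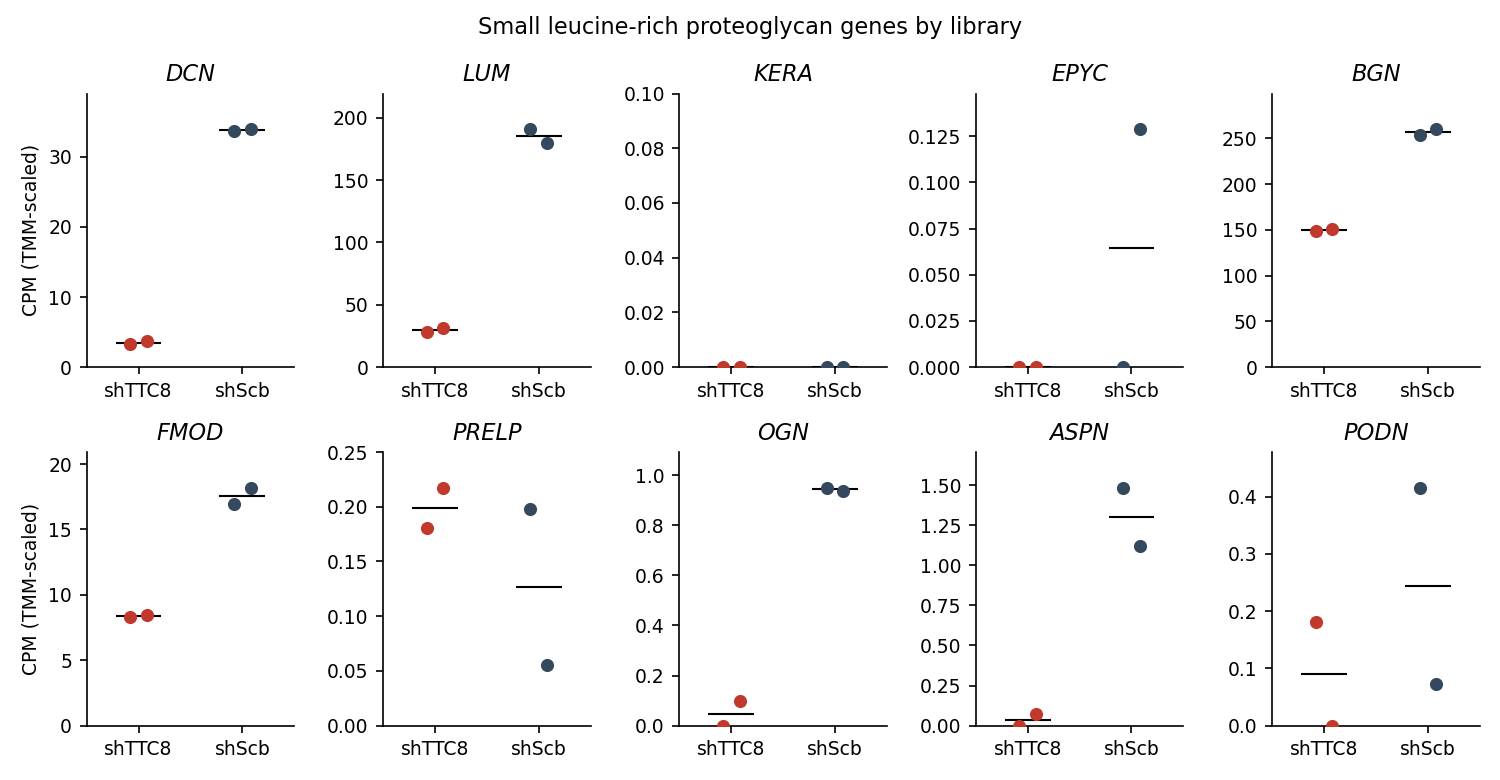
CPM of the 10 genes in each of the 4 libraries, with shTTC8 on the left and shScb on the right of every panel. Points are libraries and bars the mean of 2, on a separate scale for each gene. DCN, LUM, BGN, FMOD, OGN and ASPN show no overlap between the groups, whereas PRELP, PODN, EPYC and KERA overlap.

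DCN encodes decorin, the class I proteoglycan with a single chondroitin or dermatan sulfate chain that binds collagen I fibrils and TGF-beta. The gene (ENSG00000011465) is protein coding, on the minus strand of chromosome 12 from 91140484 to 91183123 (GRCh38). It had 129 and 152 counts in shTTC8 and 1704 and 1845 counts in shScb, which is 3.32 and 3.67 CPM in shTTC8 and 33.7 and 33.9 CPM in shScb. The lower shScb library thus lay far above the higher shTTC8 library, and 10.3% of the shScb mean remained. The fitted log2 fold change of shTTC8 over shScb was -3.27 (SE 0.11), a 9.66-fold lower level, and 0.158% of tested genes had a lower value.

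BGN, on the plus strand of chromosome X from 153494939 to 153509554 (GRCh38, ENSG00000182492), encodes biglycan. Biglycan is the closest relative of decorin, carries a pair of chains and also acts as a ligand of Toll-like receptors. The gene had 5762 and 6254 counts in shTTC8 and 12798 and 14133 counts in shScb. In CPM these were 148 and 151 in shTTC8 and 253 and 260 in shScb, without overlap between the groups. Its log2 fold change was -0.78 (SE 0.06), so 58.3% of the shScb level remained, a larger remaining share than for DCN. DCN counts came to 2.24% and 2.43% of BGN counts in shTTC8 and 13.3% and 13.1% in shScb, so within each library the class I pair stood in a different ratio in the 2 groups. Since the fold change of DCN helped choose the family, these contrasts of BGN with DCN are a description only.

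ASPN encodes asporin, the class I protein with an aspartate-rich N-terminus and no glycosaminoglycan chain, which binds collagen and TGF-beta. The gene (ENSG00000106819) is on the minus strand of chromosome 9, from 92456205 to 92482506 (GRCh38). ASPN had 0 and 3 counts in shTTC8 and 75 and 61 counts in shScb. Summed over libraries, the shTTC8 rate was 2.88% of the shScb rate, with an exact 95% interval of 0.587% to 8.61% that covers counting error only. Its fitted log2 fold change of -5.03 (SE 0.67) rests on those 3 counts. It was -4.12 without shTTC8 replicate 1. Without shTTC8 replicate 2 no count was left in shTTC8. A floor of 3 counts in the remaining library lay 16.9-fold below the shScb mean, a value for that library alone that leaves out the error of shScb.

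The RefSeq sequences just upstream of BGN and ASPN are shown because these class I genes had the highest level per length of the family and one of the lowest among the 6 members that passed the filter. The windows are the 250 bases before the RefSeq start, less any base that lies in an annotated exon, read 5′ to 3′ on the strand of the gene in GRCh38.p14. BGN is at chrX:153494730-153494938 (plus strand) and ASPN at chr9:92482507-92482756 (minus strand). Capitals mark the GC box GGGCGG on either strand. The TATA box TATAAA, the E-box CACGTG and the AP-1 site TGANTCA were searched as well, on both strands.
BGN: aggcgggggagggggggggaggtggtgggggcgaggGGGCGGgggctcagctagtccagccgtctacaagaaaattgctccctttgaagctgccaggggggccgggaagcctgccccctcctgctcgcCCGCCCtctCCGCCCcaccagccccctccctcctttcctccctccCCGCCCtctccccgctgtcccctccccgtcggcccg
ASPN: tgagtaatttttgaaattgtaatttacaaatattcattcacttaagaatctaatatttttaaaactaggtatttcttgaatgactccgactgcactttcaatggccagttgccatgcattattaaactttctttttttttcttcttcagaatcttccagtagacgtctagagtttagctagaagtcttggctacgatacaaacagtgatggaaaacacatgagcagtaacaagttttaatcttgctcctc
Over the full 250 bases the BGN window was 74% G or C and held 5 GC boxes, of which the last lies in the exonic part not shown. The ASPN window was 32.4% G or C and matched none of these motifs. Over 35116 RefSeq windows of this length the median was 58% G or C, and 42.6% held a GC box, 10.7% a TATA box, 6.34% an E-box and 6.57% an AP-1 site. Windows were found for 7 of the 10 genes. Over the full windows, FMOD had 2 GC boxes and 1 TATA box, PODN had 2 GC boxes, and EPYC had 2 TATA boxes. For FMOD no stretch was kept once annotated exons were taken out, so its matches are not clearly upstream of the gene. For PODN the 89 bases kept end 162 bases before the start, and both GC boxes, 90 and 66 bases upstream, lie nearer to it. PRELP matched none of the motifs. OGN had 1 TATA box, which lies in the overlap of the windows of its alternative starts.

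In class II, LUM encodes lumican, a keratan sulfate proteoglycan of cornea, skin and tendon that limits the thickness of collagen fibrils. LUM (ENSG00000139329) is on the minus strand of chromosome 12 from 91102629 to 91111831 (GRCh38). It had 1110 and 1290 counts in shTTC8 and 9644 and 9782 counts in shScb. These correspond to 28.6 and 31.2 CPM in shTTC8 and 191 and 180 CPM in shScb, without overlap between the groups. The log2 fold change was -2.63 (SE 0.07), with 16.1% of the shScb level remaining.

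FMOD encodes fibromodulin, which binds the same collagen site as lumican and takes part in collagen cross-linking. On the minus strand of chromosome 1, from 203340628 to 203351758 (GRCh38, ENSG00000122176), it had 322 and 349 counts in shTTC8 and 858 and 989 counts in shScb. This was 8.29 and 8.43 CPM in shTTC8 and 17.0 and 18.2 CPM in shScb. The groups did not overlap, and the log2 fold change was -1.07 (SE 0.11), with 47.5% remaining. FMOD counts were 5.59% and 5.58% of BGN counts in shTTC8 and 6.70% and 6.998% in shScb, whereas LUM counts were 19.3% and 20.6% of BGN counts in shTTC8 and 75.4% and 69.2% in shScb. Relative to BGN, LUM differed far more between the groups than FMOD did. Since the fold change of LUM helped choose the family, this is a description only.

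The other class II genes were barely detected. PRELP, a basic heparin-binding relative of fibromodulin, had 7 and 9 counts in shTTC8 and 10 and 3 counts in shScb, and the groups overlapped. Its shTTC8 rate was 161% of the shScb rate with an exact 95% counting interval of 72.6% to 364%. KERA, which encodes keratocan of the corneal stroma, had no count in any library, which allows up to 0.0772 CPM in the shallowest library and 0.0552 CPM in the deepest.

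In class III, OGN encodes osteoglycin, found in bone, vessel wall and cornea. It lies on chromosome 9 from 92383967 to 92404696 on the minus strand (GRCh38, ENSG00000106809). OGN had 0 and 4 counts in shTTC8 and 48 and 51 counts in shScb. The summed shTTC8 rate was 5.28% of the shScb rate (exact 95% interval 1.41% to 14.0%, counting error only). Its fitted log2 fold change was -4.18 (SE 0.72), and -3.26 without shTTC8 replicate 1. In shTTC8 replicate 1, which had no count, the same floor of 3 counts lay 12.2-fold below the shScb mean. That value holds for this library alone and leaves out the error of shScb. The other library, shTTC8 replicate 2, was at 0.0966 CPM, against 0.950 and 0.938 CPM in shScb. EPYC, which encodes epiphycan of growth plate cartilage, had 7 counts in shScb replicate 2 and none elsewhere. PODN, for podocan of the vessel wall, had 7 and 0 counts in shTTC8 and 21 and 4 in shScb, so both groups varied widely and overlapped. No fold change was fitted for these 2 genes or for PRELP and KERA, since they did not pass the filter.

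Levels of different genes were compared per length, in TPM, which are counts divided by the union of annotated exons and scaled to a fixed library sum. BGN was highest, at 182 ± 0.282 TPM in shTTC8 and 300.5 ± 4.94 TPM in shScb (SD, n = 2). LUM followed at 29.5 ± 1.38 TPM in shTTC8 and 177 ± 7.73 TPM in shScb (SD, n = 2). FMOD came next at 7.31 ± 0.0187 TPM in shTTC8 and 14.9 ± 0.694 TPM in shScb (SD, n = 2). DCN was at 0.809 ± 0.0457 TPM in shTTC8 and 7.56 ± 0.0188 TPM in shScb (SD, n = 2). ASPN (0.0432 ± 0.0611 TPM in shTTC8, 1.52 ± 0.301 TPM in shScb) and OGN (0.0428 ± 0.0606 TPM in shTTC8, 0.816 ± 0.00887 TPM in shScb) were next (SD, n = 2). Neighbours from BGN to DCN in this order were separated by more than their SDs in both groups. OGN and ASPN differed by less than their SDs in shTTC8. PRELP, PODN, EPYC and KERA averaged at most 0.144 TPM in either group. The place of DCN is the least certain, because its 19 coding transcripts run from 228 to 7156 bases and gene counts do not say which was present. With the principal transcript as length, a choice added after seeing the data, DCN was at 0.996 ± 0.0587 TPM in shTTC8 and 9.44 ± 0.0642 TPM in shScb (SD, n = 2). FMOD was then at 5.15 ± 6.33e-04 TPM in shTTC8 and 10.6 ± 0.397 TPM in shScb (SD, n = 2). The principal transcript used for DCN, of 7156 bases, is also its longest coding transcript, and a shorter one would place DCN higher. This choice of length therefore cannot settle the order of DCN and FMOD.

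Summed over the 10 genes, the length-scaled level was 219 ± 1.18 TPM in shTTC8 and 503 ± 2.44 TPM in shScb (SD, n = 2). BGN supplied 82.7% ± 0.574 of this sum in shTTC8 and 59.8% ± 1.27 in shScb (SD, n = 2). LUM supplied 13.5% ± 0.557 in shTTC8 and 35.2% ± 1.37 in shScb (SD, n = 2). BGN thus supplied most of the sum in both groups, and LUM supplied a larger share in shScb than in shTTC8. Because the fold changes of LUM and DCN chose the family, this difference in shares is a description only. With the principal transcript as length, the share of BGN was 82.7% ± 0.564 in shTTC8 and 59.5% ± 1.25 in shScb (SD, n = 2).

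**Figure D2:**
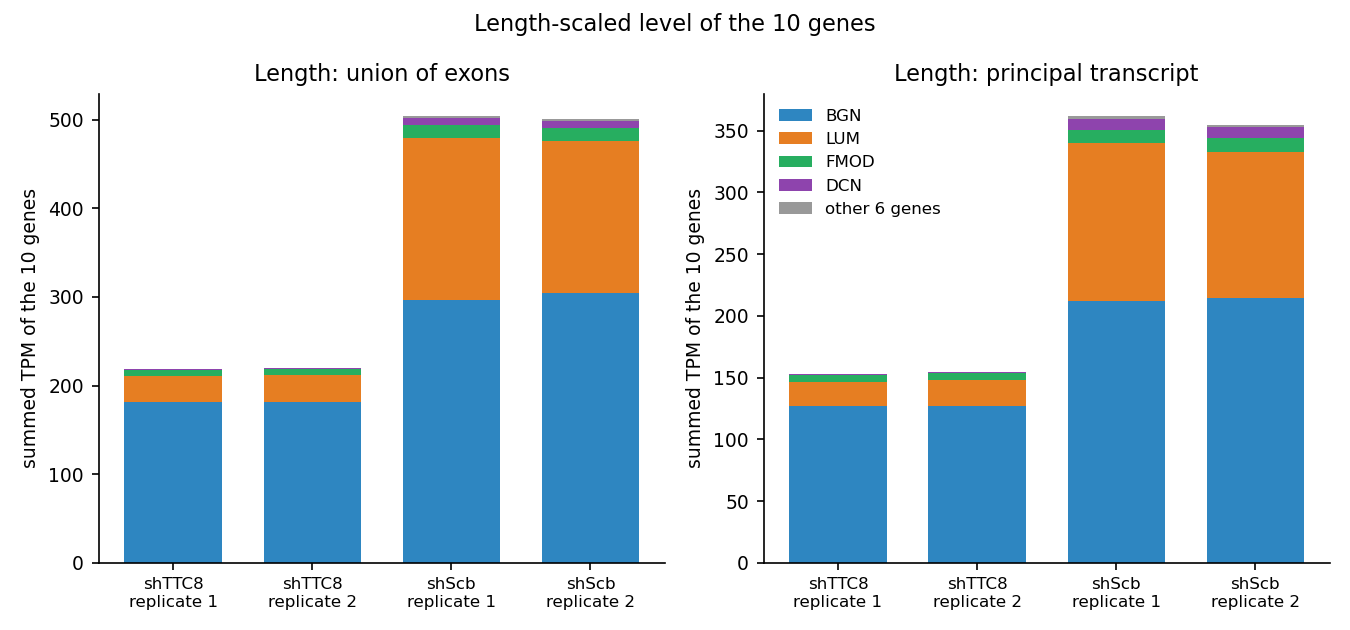
Summed TPM of the 10 genes in each library, stacked by gene, with the union of exons as length on the left and the principal transcript on the right. BGN makes up most of the bars of about 219 TPM in shTTC8, and LUM takes a larger share of the bars of about 503 TPM in shScb (left).

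Several members sit beside each other in the genome. KERA, LUM, DCN and EPYC lie within 219 kb of chromosome 12 on the minus strand, with 28.7 kb between LUM and DCN. Of 13 annotated genes in or within 500 kb of this span, 4 had any count. Besides LUM and DCN these were EPYC and a long noncoding RNA, ENSG00000277738, which had 2 counts in 1 shTTC8 library. Only the pair of LUM and DCN could therefore be compared there.

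OGN and ASPN lie 51.5 kb apart on chromosome 9, within the span of CENPP, a centromere protein gene on the opposite strand. ECM2, another leucine-rich repeat gene of this cluster, had 1 and 2 counts in shTTC8 and 9 and 5 in shScb. CENPP changed by -0.71 (SE 0.08, edgeR adjusted p = 7.82e-06), at 33.0 ± 1.32 CPM in shTTC8 and 53.9 ± 1.93 CPM in shScb (SD, n = 2). NOL8, a nucleolar protein gene, changed by -0.51 (SE 0.07, edgeR adjusted p = 1.13e-04), and IARS1, the cytosolic isoleucyl-tRNA synthetase gene, by -0.58 (SE 0.06, edgeR adjusted p = 5.56e-06). CENPP and NOL8 share exonic positions on opposite strands, NOL8 having 116% of the CENPP counts. IPPK, with 22.3% of the CENPP counts, shares others with CENPP. How reads at shared positions were assigned is not known, so the values of CENPP and NOL8 are uncertain. CENPP, NOL8 and IARS1 were thus lower in shTTC8, by less than the fitted falls of OGN and ASPN. FMOD and PRELP lie 124 kb apart on chromosome 1, beside BTG2, an antiproliferative immediate early gene. BTG2 rose in shTTC8, to 18.0 ± 0.617 CPM against 8.95 ± 0.633 CPM in shScb (SD, n = 2, log2 fold change 1.01, edgeR adjusted p = 8.30e-06), in the direction opposite to its neighbour FMOD.

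**Figure D3:**
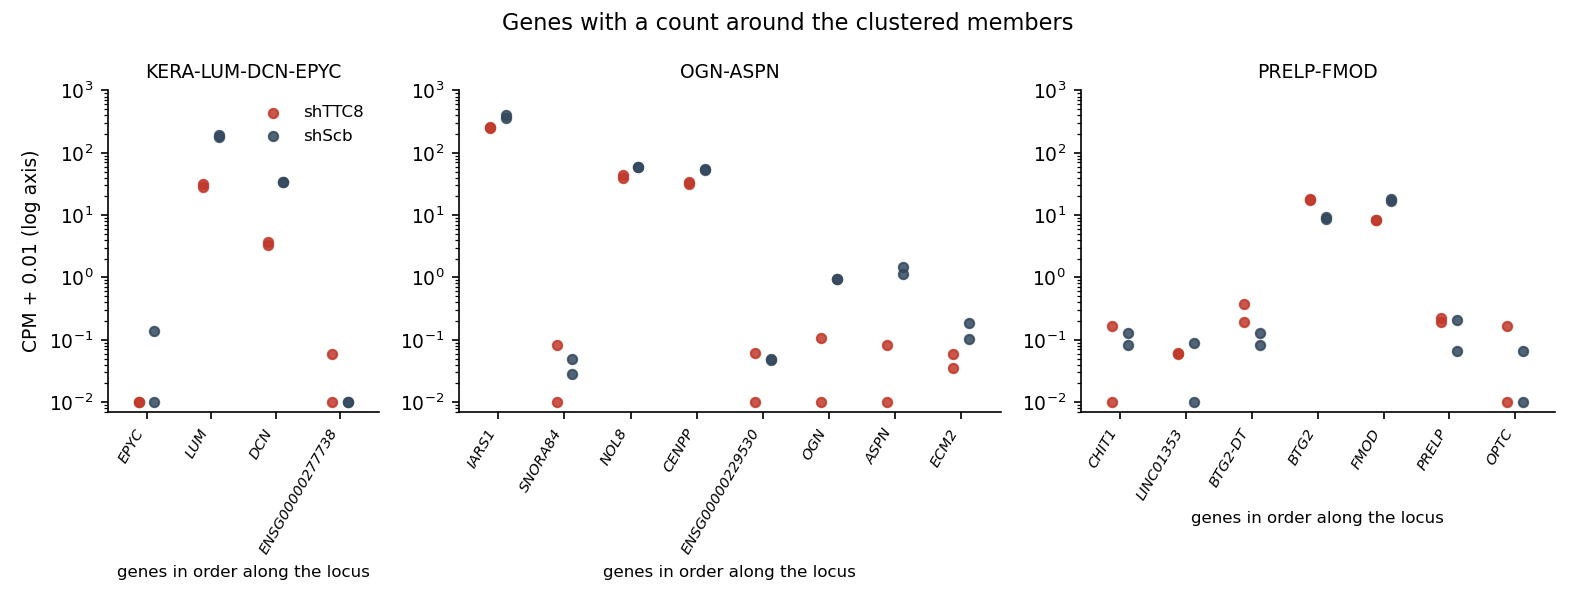
CPM plus 0.01 on a log axis for every gene with a count around the 3 groups of neighbouring members, in order along the chromosome and not to scale. Points are libraries, with shTTC8 left of shScb for each gene. LUM and DCN stand out from near-silent neighbours, and BTG2 is higher in shTTC8 while FMOD is lower.

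A rule of likeness ranked 10764 other protein-coding genes with a mean of at least 5 CPM by the distance of their log2 CPM, centred on each gene, over the 4 libraries. The nearest to DCN included ADAMTS2, a procollagen N-proteinase gene (distance 0.24), TTC8 itself (0.57), LUM (0.63) and the angiopoietin gene ANGPT1 (0.72). The nearest to LUM included TTC8 (0.08), ANGPT1 (0.18), the synaptic calsyntenin gene CLSTN2 (0.24) and the secreted BMP and Nodal antagonist gene DAND5 (0.33). With 4 libraries in 2 groups, this measure mostly ranks genes by the size of the same difference, and it is a description only.

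The family has further genes. Of the 8 considered, OMD and NYX had no count, and OPTC, ECM2 and CHAD did not pass the filter. TSKU, which encodes tsukushi, a secreted inhibitor of Wnt and BMP signalling, rose in shTTC8. It stood at 67.0 and 66.2 CPM in shTTC8 and 50.1 and 52.6 CPM in shScb (log2 fold change 0.37, SE 0.07, edgeR adjusted p = 7.66e-04), without overlap. CHADL stood at 0.463 ± 0.0737 CPM in shTTC8 and 1.22 ± 0.301 CPM in shScb (SD, n = 2, log2 fold change -1.40, edgeR adjusted p = 0.0114). That call was lost with DESeq2 (adjusted p = 0.0575), without shTTC8 replicate 2 (edgeR adjusted p = 0.0586) and without shScb replicate 2 (edgeR adjusted p = 0.104), and CHADL shares exonic positions with L3MBTL2, whose counts were 3402% of its own. PODNL1 was not called (log2 fold change -0.20, edgeR adjusted p = 0.81) and shares exonic positions with DCAF15, which had far more counts.

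Chondroitin and dermatan sulfate chains are built by a linkage set, polymerases, epimerases and sulfotransferases. All 22 genes of this list were tested, of which 5 were higher and 5 lower, against 15.2% higher and 16.7% lower over all genes, and the median log2 fold change was 0.07 (0.004 over all tested genes). The linkage genes XYLT1, XYLT2, B4GALT7, B3GALT6, B3GAT3 and FAM20B were not called, with log2 fold changes of -0.09 to 0.19, although B3GAT3 passed the threshold with library size alone (edgeR adjusted p = 0.0222) and without shScb replicate 2 (0.00925). Polymerase genes were split. CHSY1 fell to 34.9 ± 0.971 CPM in shTTC8, against 76.2 ± 3.37 CPM in shScb (SD, n = 2, log2 fold change -1.13, edgeR adjusted p = 5.24e-08). CHSY3 rose to 34.8 ± 1.89 CPM in shTTC8, against 17.9 ± 0.663 CPM in shScb (SD, n = 2, log2 fold change 0.96, edgeR adjusted p = 1.57e-06). The chain-starting transferase gene CSGALNACT2 fell by 0.78 and CHST11, a chondroitin 4-sulfotransferase gene, fell by 0.76 on the log2 scale (edgeR adjusted p = 8.95e-05 and 2.56e-04). CHST15, which sulfates the 6 position of GalNAc 4-sulfate, rose by 1.17 (edgeR adjusted p = 6.62e-07). Of the epimerase genes, DSE was not called (0.08, edgeR adjusted p = 0.545), although its counts are uncertain because TSPYL1, with 248% of them, shares exonic positions. DSEL stood at 1.02 ± 0.275 CPM in shTTC8 and 2.67 ± 0.0519 CPM in shScb (SD, n = 2, log2 fold change -1.39, edgeR adjusted p = 0.00146). The rises of CHPF (0.31, edgeR adjusted p = 0.00299) and CHPF2 (0.27, edgeR adjusted p = 0.00595) are less certain. Exons of CHPF overlap those of TMEM198 (56.2% of the CHPF counts), exons of CHPF2 those of SMARCD3 (13.2%), and without shTTC8 replicate 1 their adjusted p was 0.115 and 0.0537. CHPF2 also missed the threshold without shTTC8 replicate 2 (edgeR adjusted p = 0.0616). The number called higher was 3 without shTTC8 replicate 1 and 3 without shTTC8 replicate 2.

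Keratan sulfate chains of the lumican type extend from N-linked sugars by alternating GlcNAc and galactose transferases. Of 12 tested genes of 15, 4 were higher and 6 lower (median -0.14), against 15.2% higher and 16.7% lower over all genes. The galactosyltransferase gene B4GALT4 fell to 22.7 ± 0.0348 CPM in shTTC8, against 40.1 ± 0.205 CPM in shScb (SD, n = 2, log2 fold change -0.82, edgeR adjusted p = 3.29e-06). FUT8, which fucosylates the N-glycan core, fell by 0.70 (edgeR adjusted p = 9.24e-06), and the GlcNAc transferase genes B3GNT2 and B3GNT7 fell by 0.55 and 1.33 (edgeR adjusted p = 3.02e-04 and 0.0037). CHST2, a GlcNAc 6-sulfotransferase gene, rose by 0.93 and the sialyltransferase gene ST3GAL2 by 0.45 (edgeR adjusted p = 6.86e-04 and 7.12e-05). ST3GAL3 (0.27, edgeR adjusted p = 0.0373) and B4GALT3 (0.24, edgeR adjusted p = 0.0116) were also higher. Exons of B4GALT3 overlap those of PPOX (27.1% of the B4GALT3 counts), and its adjusted p was 0.0939 without shTTC8 replicate 1 and 0.0911 without shTTC8 replicate 2. The ST3GAL3 call was lost in 5 of 10 alternatives, among them DESeq2 (adjusted p = 0.0637) and the fits without shTTC8 replicate 1 (0.0577), shTTC8 replicate 2 (0.292) and shScb replicate 1 (0.129). Without shTTC8 replicate 2, 2 genes were called higher. CHST6, the corneal keratan sulfate sulfotransferase gene, had at most 0.193 CPM in any library and was not tested.

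**Figure D4:**
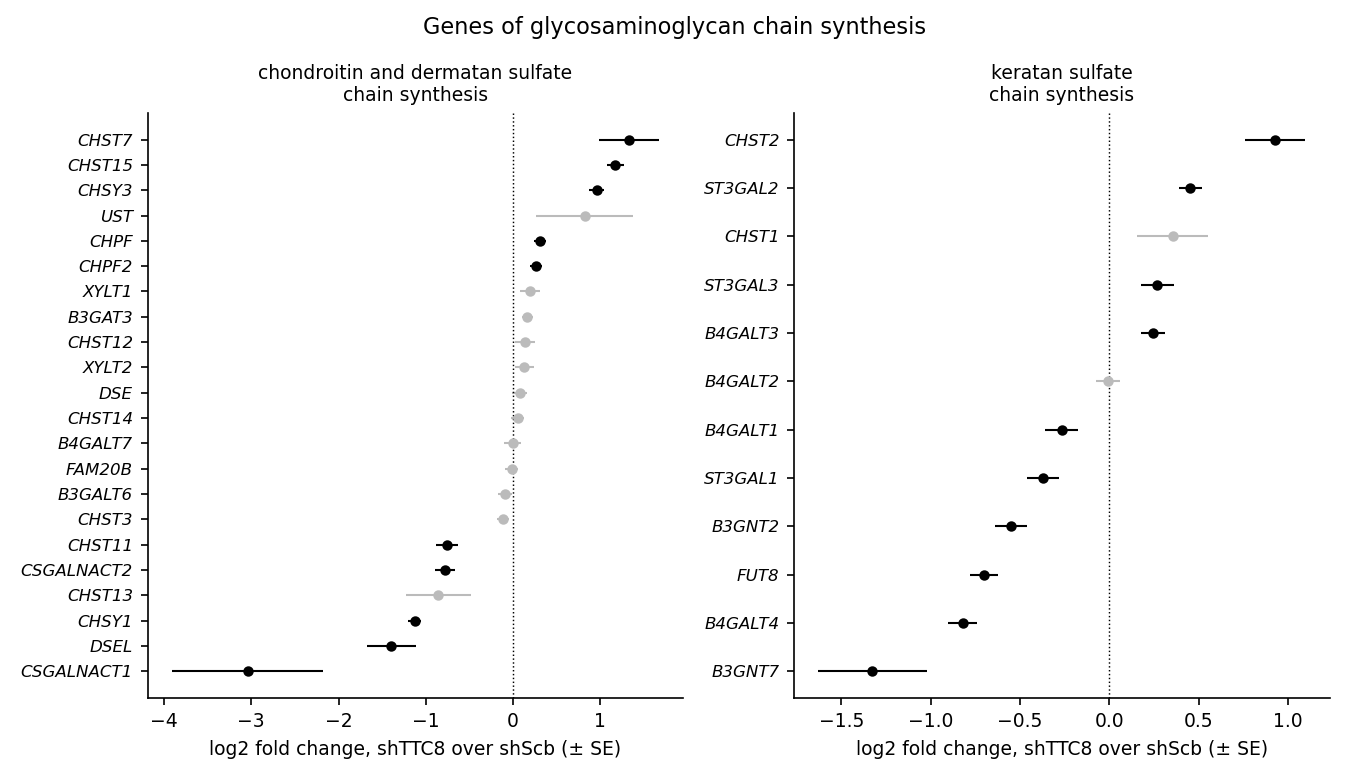
Log2 fold changes of shTTC8 over shScb with their SEs for tested genes of chondroitin and dermatan sulfate synthesis (left) and keratan sulfate synthesis (right). Black points passed the adjusted p threshold and grey points did not. CHSY1 and CHSY3 lie on opposite sides of 0, at -1.13 and 0.96.

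The collagens and other matrix partners that the family binds gave 1 higher and 7 lower of 16 tested genes of 22 (median -0.42), where all genes gave 15.2% higher and 16.7% lower. The collagen VI genes, whose microfibrils bind decorin and biglycan, were lower. COL6A2 fell to 30.5 ± 1.34 CPM in shTTC8, against 67.9 ± 4.83 CPM in shScb (SD, n = 2, log2 fold change -1.16, edgeR adjusted p = 8.94e-08), and COL6A1 and COL6A3 fell by 0.42 and 1.53 (edgeR adjusted p = 3.95e-04 and 6.91e-05). COL1A1, the main chain of the fibrils that decorin coats, was low, at 1.25 ± 0.127 CPM in shTTC8 and 5.24 ± 0.444 CPM in shScb (SD, n = 2, log2 fold change -2.07, edgeR adjusted p = 5.82e-06). Its partner chain COL1A2 had no count in shTTC8 and 0.138 and 0.0920 CPM in shScb. TNXB changed by -1.13 (edgeR adjusted p = 1.67e-04), but shares exonic positions with ATF6B, which had 251% of its counts, and with CYP21A2, which had 39.2%. The called gene that rose was FBN1, for fibrillin-1 of elastic microfibrils (log2 fold change 0.41, edgeR adjusted p = 0.00133).

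Of the receptors and growth factors that the family is known to bind, 16 of 23 were tested, with 3 higher and 7 lower (median -0.63), beside 15.2% higher and 16.7% lower over all genes. LRP1, the endocytic receptor that clears decorin, fell to 29.8 ± 3.84 CPM in shTTC8, against 70.5 ± 2.41 CPM in shScb (SD, n = 2, log2 fold change -1.24, edgeR adjusted p = 1.35e-07). EGFR, a receptor that decorin antagonises, fell by 0.59 (edgeR adjusted p = 1.93e-04). CD44 and P2RX7, with which biglycan signals, fell by 0.75 and 1.00 (edgeR adjusted p = 1.07e-06 and 1.52e-05). MET, a further decorin receptor, had 2 counts at most in any library and TLR2 none, and TLR4 was not called (edgeR adjusted p = 0.148). TLR4 passed the threshold without shTTC8 replicate 1 (edgeR adjusted p = 0.0249), which left no count in shTTC8. The TGF-beta ligand genes went in different directions. TGFB2 fell to 0.914 CPM in shTTC8, against 2.52 CPM in shScb (log2 fold change -1.46, edgeR adjusted p = 0.00153). TGFB3 rose by 0.55 and IGF1R by 0.20 (edgeR adjusted p = 0.00399 and 0.0192). IGF1R missed the threshold when shTTC8 replicate 1 was left out (edgeR adjusted p = 0.254), when shTTC8 replicate 2 was (0.0709) and with no low-count filter (0.0635). TGFB1 rose by 1.25 (edgeR adjusted p = 8.66e-05), but shares exonic positions with HNRNPUL1, which had 5564% of its counts.

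Among 10 tested of 15 genes for proteases that cut or release the family, 2 were higher and 2 lower (median 0.05), beside 15.2% and 16.7% of all genes. The aggrecanase genes ADAMTS1 and ADAMTS4 rose by 0.79 and 0.45 (edgeR adjusted p = 2.56e-05 and 8.70e-04). HTRA1 stood at 2.50 ± 0.628 CPM in shTTC8 and 4.94 ± 0.0163 CPM in shScb (SD, n = 2, log2 fold change -0.98, edgeR adjusted p = 0.0028). BMP1, which removes the propeptide of biglycan, changed by -0.28 (edgeR adjusted p = 0.0323), and its call was lost in 5 of 10 alternatives, among them DESeq2 (adjusted p = 0.0713) and the fits without shTTC8 replicate 1 (0.0755), shTTC8 replicate 2 (0.234) and shScb replicate 2 (0.101). MMP2 and MMP14, which cut decorin and lumican, were abundant, at 727 ± 9.65 CPM (MMP2) and 162 ± 5.94 CPM (MMP14) in shTTC8, against 687 ± 33.2 CPM (MMP2) and 161 ± 7.61 CPM (MMP14) in shScb, and were not called (SD, n = 2, edgeR adjusted p = 0.352 and 0.922).

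Proteoglycans outside the family moved in both directions, with 6 higher and 8 lower of 23 tested genes of 31 (median -0.18), and 5 lower without shTTC8 replicate 2. Over all genes 15.2% were higher and 16.7% lower. Lower genes included SPOCK1 for testican-1, at 18.3 ± 0.552 CPM in shTTC8 and 59.5 ± 1.75 CPM in shScb (SD, n = 2, log2 fold change -1.70, edgeR adjusted p = 3.33e-09). Syndecan-2 (SDC2), versican (VCAN) and glypican-3 (GPC3) genes fell by 1.16, 0.76 and 0.68 (edgeR adjusted p = 3.46e-07, 3.74e-07 and 4.72e-05). AGRN, for agrin of basement membranes and the neuromuscular junction, rose to 61.0 ± 6.73 CPM in shTTC8, against 22.9 ± 0.729 CPM in shScb (SD, n = 2, log2 fold change 1.42, edgeR adjusted p = 4.10e-08). SPOCK3, for testican-3 of brain, was low and rose by 3.88 on the log2 scale, to 2.14 ± 0.361 CPM in shTTC8, against 0.142 ± 0.0332 CPM in shScb (SD, n = 2, edgeR adjusted p = 4.15e-06). GPC2 and SPOCK2 rose by 0.46 and 0.47 (edgeR adjusted p = 1.33e-04 and 1.49e-04). Thus SPOCK1 was lower while SPOCK2 and SPOCK3 were higher in the same libraries.

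**Figure D5:**
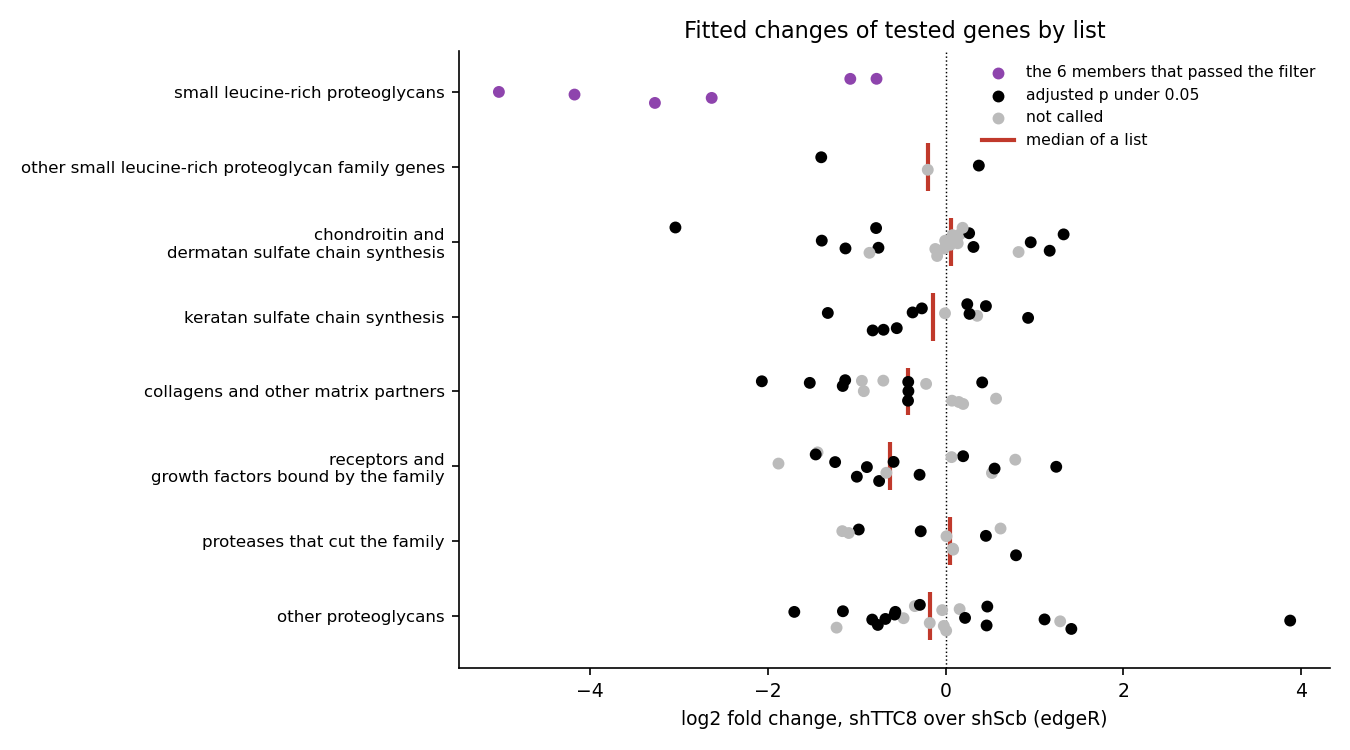
Log2 fold changes of shTTC8 over shScb for tested genes, by list. Purple points are the 6 members that passed the filter, black points other genes past the adjusted p threshold, grey points genes not called, and red bars the medians of the other lists, such as -0.42 for the collagens and -0.63 for the receptors and growth factors. Genes of the other lists lie on both sides of 0.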

How the data were processed

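Total RNA was extracted with TRIzol and made into libraries with a TruSeq RNA kit, per the labels' protocols. That kit keeps no strand information. HISAT2 2.2.0 and the build hg38 are named in the submitters' processing notes. Which program counted reads, and on which annotation, is not given in the sources used here. Whole-number counts per gene, without normalization, were deposited by the authors. Groups came from the sample titles.

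Counts were fitted in R 4.3.3 with edgeR 4.0.16 (filterByExpr, TMM scaling, robust quasi-likelihood F test, two-sided, Benjamini-Hochberg over 19610 genes at 0.05). Each SE was obtained as the log2 fold change divided by the root of its F statistic. CPM used TMM-scaled library sizes. TPM used GENCODE 29 exon lengths, so lengths and positions are those of GRCh38. In a simulation over 19610 genes, of which 200 were changed, edgeR recovered 18%, 42%, 64% and 86% of genes changed 1.25-, 1.5-, 2- and 4-fold. It called 0.0979% of unchanged genes. In the data 31.9% of tested genes were called. The adjusted p depends on the share of changed genes, so these rates may not hold for the data.

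Members and lists were chosen with earlier results of these data known. Named genes were TTC8, all members and family genes, up to 4 called genes per list and direction by p, genes near clustered members, those nearest DCN and LUM (1 is not reported here), and the most abundant markers. Others, such as linkage genes, MMP2, MMP14, MET, TLR2, TLR4, TGFB2, COL6A1, COL1A2, DSE, CHST6 and markers at or near 0, were named after their values were seen. Shared exonic positions are mentioned for named genes that passed the low-count filter, where the partner's counts were 13.2% or more. Of named genes that did not pass, CHAD, MFAP5 and SOX10 share exonic positions with ACSF2, HADHAP2 and POLR2F, which had far more counts.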

Additional observations from a re-analysis of the deposited data

How the results depend on the processing

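The counts were refitted with DESeq2 1.42.0, after RLE scaling or scaling by library size alone, without the low-count filter or with a stricter one (1 CPM in 2 libraries), with the replicate number as a block, and with each library left out. For the members this gives ranges only, since the comparison chose them, and OGN did not pass the stricter filter. The fitted values of DCN, LUM, BGN and FMOD ranged from -3.34 to -3.20, -2.69 to -2.57, -0.80 to -0.74 and -1.12 to -1.02. Leaving out a library gave 1880 (without shTTC8 replicate 1) to 3395 genes called higher in all, 0 to 1 other family genes lower, 3 to 7 chondroitin and dermatan sulfate genes higher, 2 to 4 keratan sulfate genes higher, 1 to 2 protease genes lower and 5 to 8 other proteoglycan genes lower. Other family genes called lower were 0 with the stricter filter and 0 with DESeq2. Protease genes called lower were 1 with library size alone and 1 with DESeq2. With a library left out PODNL1 ranged from -0.51 to 0.20 (without shScb replicate 2) and the Schwann cell marker S100B from -0.0098 (without shTTC8 replicate 1) to 0.27. B4GALT7 ranged from -0.0509 to 0.0421, FAM20B from -0.0804 to 0.0473, MMP14 from -0.0398 to 0.0591 and XYLT2 from -0.0073 to 0.27. With library size alone B4GALT7 was 0.0371 and FAM20B 0.0250, and with no low-count filter MMP14 was -0.0157. None of these was called. Of 903 values of 91 named genes, 860 kept direction and side of the threshold, 27 lost the call, 4 gained one (B3GAT3, FBLN1 and TLR4) and 12 changed sign. The causes were not tested. The labels do not pair the libraries, and deviations of libraries with the same number correlated at 0.03 across genes. With the replicate number as a block 3092 genes were higher and 3343 lower. Counts of OGN, ASPN, PRELP, PODN and EPYC are too few for precise levels.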
